A study of Mus musculus with 14 samples.

Results

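At homeostasis, 711 of 4478 BMI1 regions of mouse cardiac Sca1+CD45- cells overlapped no region of H2AK119ub, a histone mark of Polycomb complexes. These 711 are called unpaired BMI1 regions here, and the other 3767 paired BMI1 regions. Regions were chosen from the deposited peak lists: overlapping peaks (1 bp or more) of the 3 Homeostasis BMI1 lists were merged and kept where 2 or more lists held a peak, H2AK119ub regions were built likewise from the 3 Homeostasis H2AK119ub lists, and an unpaired region was one that shared no base with any of the 6341 H2AK119ub regions. The unpaired share, 15.9% (exact 95% binomial interval 14.8 to 17.0%, counting error only), is what the rule measured and is a description. It rested on the lists used far more than on counting: with BMI1 replicate 1, 2 or 3 left out and regions required in both remaining lists, 351, 236 and 368 regions were unpaired (10.9%, 9.52% and 11.1%), and with H2AK119ub replicate 1, 2 or 3 left out 847, 2914 and 2957 (18.9%, 65.1% and 66.0%). All lists of the series merged to 17487 regions. Of the 711 regions, 3 lay on unplaced or patch sequences, and 708 on the assembled chromosomes.

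The study used ChIP-seq, which sequences the DNA that an antibody pulls down with its protein, to map BMI1 and H2AK119ub in C57BL/6 mice aged 6 to 8 weeks. The 4 groups had 3 libraries each: Damage BMI1 and Damage H2AK119ub, from mice given 1 intraperitoneal dose of 20 mg/kg paraquat in PBS, and Homeostasis BMI1 and Homeostasis H2AK119ub, from mice given PBS without paraquat. Cells were enriched for Sca1+CD45- by magnetic sorting, and the labels do not say whether the cells used had then been cultured, nor whether replicates came from separate mice. Peak lists hold no expression, so the cell type was not checked against its markers. Homeostasis BMI1 lists held 5020, 7513 and 4072 peaks for replicates 1, 2 and 3, and Homeostasis H2AK119ub lists held 2000, 13487 and 7523. The 6 Damage lists held 19 to 68. Every peak had a score of 1 and nearly the same width, so read depth and peak strength are unknown and a missing peak does not show that the protein or mark was absent.

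BMI1 is a subunit of canonical Polycomb repressive complex 1, whose RING1 subunits place a single ubiquitin on the lysine of histone H2A that the mark is named for. Related complexes that hold another PCGF protein in the place of BMI1 also write the mark, and deubiquitinases remove it, so BMI1 and H2AK119ub need not coincide at every site. In many cell types BMI1 represses Cdkn2a, which encodes the cell cycle inhibitors INK4a and ARF.

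Few BMI1 regions of either set lay at gene starts. The centre was within 1 kb of a RefSeq start site for 2.12% of 708 unpaired and 2.42% of 3758 paired regions. Windows from 250 bases before to 50 bases after a RefSeq start site were reached by 2 of the 711 regions, against 10 of the 3767 paired ones. The windows of both are shown as the stretches of promoter that an unpaired region touched, with the bases inside the region in capitals (RefSeq, GRCm38.p6, plus strand, 5′ to 3′). The first belongs to Cdh26, which encodes a cadherin, a cell adhesion protein (chr2:178430265-178430564), and the second to Ilf2, which encodes a double-stranded RNA binding protein (chr3:90475951-90476250).
Cdh26: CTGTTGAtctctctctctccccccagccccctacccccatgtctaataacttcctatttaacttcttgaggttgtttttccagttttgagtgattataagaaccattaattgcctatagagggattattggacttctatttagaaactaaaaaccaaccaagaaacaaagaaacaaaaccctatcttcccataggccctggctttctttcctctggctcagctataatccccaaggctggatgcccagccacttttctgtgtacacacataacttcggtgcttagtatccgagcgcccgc
Ilf2: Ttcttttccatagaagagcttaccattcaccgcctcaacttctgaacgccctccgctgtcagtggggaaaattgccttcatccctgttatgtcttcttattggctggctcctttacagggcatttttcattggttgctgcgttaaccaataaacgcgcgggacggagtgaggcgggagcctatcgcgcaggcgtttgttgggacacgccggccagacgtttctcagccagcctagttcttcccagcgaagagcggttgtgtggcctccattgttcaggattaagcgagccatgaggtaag
The region at Cdh26 (chromosome 2, 178430167 to 178430271) entered the window by 7 bases, with its centre 296 bases before the start site. The region at Ilf2 (chromosome 3, 90475850 to 90475951) entered it by 1 base, with its centre 301 bases before the start site, and it lay on the methionine tRNA gene n-TMcat11. The Cdh26 window had a GC content of 44% with 4 CpG dinucleotides and the Ilf2 window 53% with 18, against medians of 52.7% and 7 over 32851 windows. Both regions had peaks in BMI1 replicates 1 and 2 and not in replicate 3, whose nearest peak at Cdh26 was 115 bases away. The region at Cdh26 also had a peak in H2AK119ub replicate 2, and the region at Ilf2 in H2AK119ub replicate 1.

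Most unpaired regions did hold an H2AK119ub peak, in a single list. Of the 711, 547 (76.9%) overlapped a peak of 1 H2AK119ub list, 26 (3.66%) overlapped peaks of 2 lists that did not overlap each other, and 138 (19.4%) overlapped no H2AK119ub peak. Replicate 2, the longest H2AK119ub list, supplied the single peak at 407 regions, replicate 3 at 77 and replicate 1 at 63. The 138 regions with no H2AK119ub peak made up 3.08% of all BMI1 regions (exact 95% binomial interval 2.60 to 3.63%). They numbered 69, 48 and 40 with BMI1 replicate 1, 2 or 3 left out. All of these values follow from the lists that the rule used.

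The lists differed in how many unpaired regions they reached. H2AK119ub replicate 1 had a peak at 9.0% of unpaired and 42.9% of paired regions, replicate 2 at 60.9% and 97.6%, and replicate 3 at 14.3% and 98.7%. These lists defined the 2 sets, so the gaps in the plot of single H2AK119ub lists were set by the rule and are a description. For scale, BMI1 lists were set against each other in the same way, without the consensus of H2AK119ub. Of 3319 regions common to BMI1 replicates 1 and 2, 68.8% had a peak in BMI1 replicate 3, and 43.1%, 95.4% and 89.5% had one in H2AK119ub replicates 1, 2 and 3. Of 2479 regions common to replicates 1 and 3, 92.0% had a peak in BMI1 replicate 2, and 55.6%, 90.8% and 91.3% in the H2AK119ub lists. Of 3235 common to replicates 2 and 3, 70.6% had one in BMI1 replicate 1, and 45.0%, 94.2% and 90.0% in the H2AK119ub lists. In 2 of the 3 pairs a BMI1 region was thus found more often in H2AK119ub replicates 2 and 3 than in the remaining BMI1 list. List length moved with these shares, and its part in them was not tested.

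**Figure D1:**
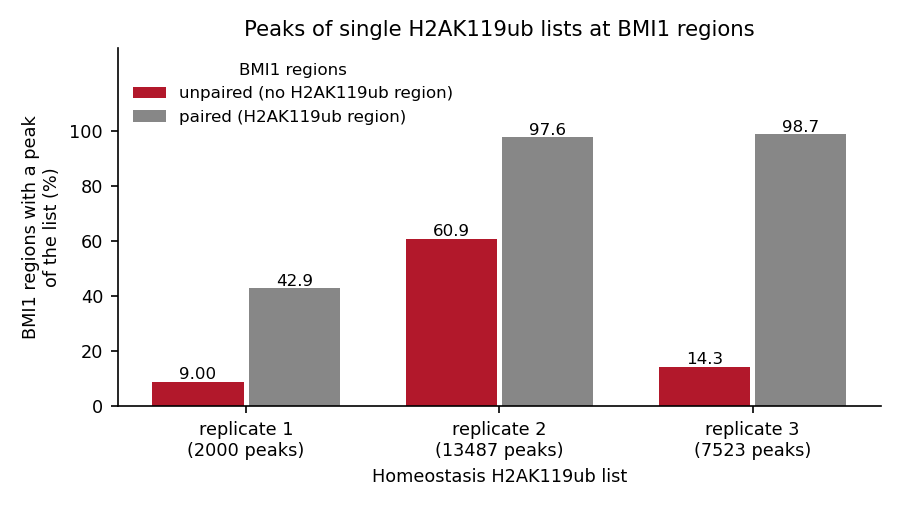
Share of BMI1 regions (y axis, percent) with a peak in each Homeostasis H2AK119ub list (x axis, with its number of peaks), for the 711 unpaired regions (red) and the 3767 paired regions (grey). Unpaired regions had a peak of replicate 2 in 60.9% and of replicates 1 and 3 in 9.0% and 14.3%.

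The BMI1 lists that held a peak are part of the rule too, and the shares below describe regions, which are not replicates. Of the 711, 590 (83.0%) had peaks in 2 BMI1 lists and 121 in all 3. Among regions with peaks in 3 BMI1 lists 5.27% of 2295 were unpaired (exact 95% interval 4.39 to 6.27%), and among those with peaks in exactly 2 it was 27.0% of 2183 (25.2 to 28.9%). The share differed with the pair of lists. Regions of replicates 1 and 3 were unpaired in 58.3% (116 of 199), those of replicates 1 and 2 in 23.7% (245 of 1034) and those of replicates 2 and 3 in 24.1% (229 of 950). By library, 482, 595 and 466 unpaired regions had a peak in BMI1 replicates 1, 2 and 3, which was 9.60%, 7.92% and 11.4% of the peaks of each list (mean 9.66 ± 1.76%, SD, n = 3). In the H2AK119ub lists 3.20%, 3.21% and 1.36% of the peaks lay at unpaired regions.

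**Figure D2:**
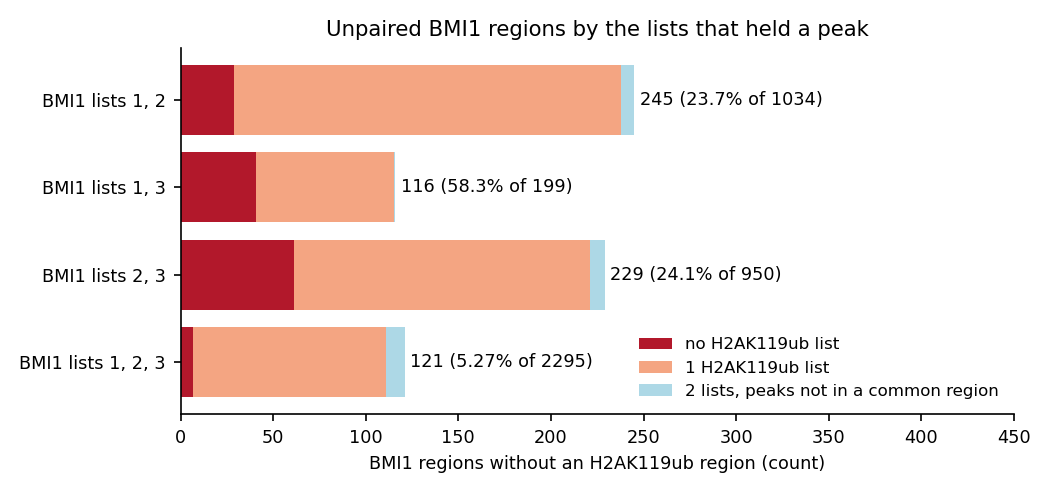
Number of unpaired BMI1 regions (x axis) for each combination of Homeostasis BMI1 lists with a peak (y axis), divided by whether no, 1 or 2 H2AK119ub lists held a peak there. Labels give the total and its share of all BMI1 regions of that combination, which was lowest, 5.27%, for regions in all 3 BMI1 lists.

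Most unpaired regions, 654 of 709, lay more than 1 kb from an H2AK119ub region, the kind found in 2 or more lists. Even so, 573 of the 711 (80.6%) held a peak of 1 or more H2AK119ub lists. The distance expected of a random position was not computed. The bases between a region and the nearest H2AK119ub region had a median of 124 kb (quartiles 34.6 and 260 kb, 709 regions with an H2AK119ub region on the same sequence), and 47 regions had one within 100 bases and 55 within 1 kb. Of the 138 regions with no H2AK119ub peak, 36 had a peak of some H2AK119ub list within 100 bases and 43 within 1 kb. The other 95 had none within 1 kb, and were 2.12% of all BMI1 regions (exact 95% interval 1.72 to 2.59%). Peaks were 101 bp wide in nearly all cases, so a shift of about 1 peak width between lists is enough to make a region unpaired. Of BMI1 peaks with an H2AK119ub peak within 1 kb, the nearest H2AK119ub centre was more than 50 bases away for 12.1% of peaks in unpaired regions and for 2.33% in paired regions, a difference that the rule sets, since it sorted regions by overlap. The values nearest the threshold were gaps of 0, 6 and 7 bases for unpaired regions in Creb3l2 (chromosome 6, 37358779 to 37358900), in Lrig2 (chromosome 3, 104492709 to 104492811) and 13.5 kb from Hes5 (chromosome 4, 154947084 to 154947197). On the other side were overlaps of 3, 4 and 5 bases for paired regions near Manba, Cdh13 and Gm20880.

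**Figure D3:**
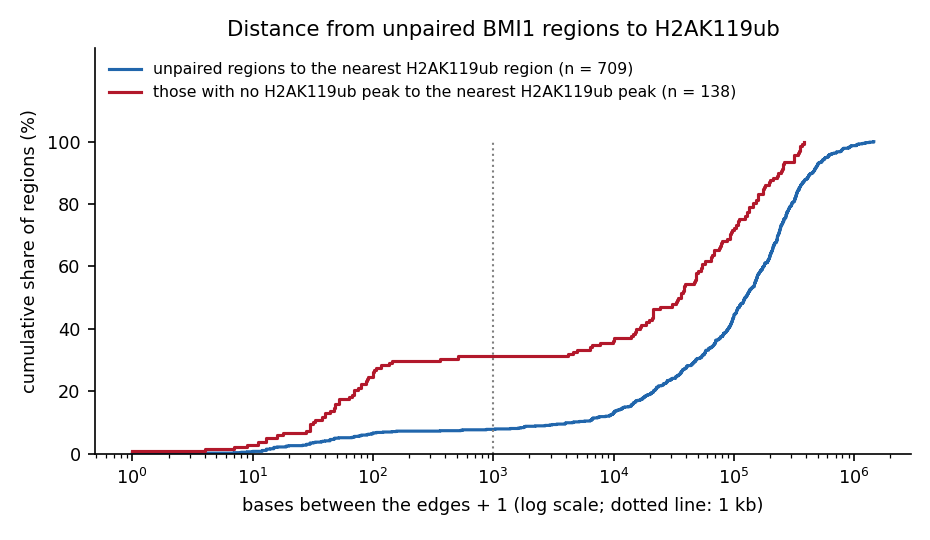
Cumulative share (y axis, percent) of unpaired BMI1 regions by the bases to the nearest H2AK119ub region (blue, 709 regions), and of the 138 without an H2AK119ub peak by the bases to the nearest peak of any H2AK119ub list (red). The x axis is logarithmic, and 43 of the 138 lie within 1 kb of a peak.

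Of the unpaired regions, 7 had peaks in all 3 BMI1 lists and in no H2AK119ub list. In each of them the starts of the 3 BMI1 peaks lay within 10 bases of each other. One lay in Mapt, which encodes the microtubule protein tau (chromosome 11, 104285073 to 104285183), with the nearest H2AK119ub peak 199840 bases away. Another lay in Casd1, which encodes a sialic acid acetyltransferase (chromosome 6, 4639766 to 4639867), with the nearest H2AK119ub peak 39132 bases away. A further one lay at Mup-ps12, a locus named as a pseudogene of the major urinary proteins and annotated as protein-coding (chromosome 4, 61447585 to 61447688), 76327 bases from an H2AK119ub peak.
The remaining 4 lay between genes. One was 366 kb from Nr4a2, which encodes an orphan nuclear receptor (chromosome 2, 56740372 to 56740475), and 92348 bases from an H2AK119ub peak. Another was 26.8 kb from Zfr, which encodes a zinc finger RNA binding protein (chromosome 15, 12090755 to 12090861), and 178358 bases from an H2AK119ub peak. The last 2 had H2AK119ub close by. The region 124 kb from Fgf14, which encodes an intracellular fibroblast growth factor homologue (chromosome 14, 124801749 to 124801850), had peaks of H2AK119ub replicates 3, 2 and 1 at 66, 101 and 109 bases. The region 100 kb from Bcor, which encodes a corepressor found in a variant Polycomb complex (chromosome X, 11936382 to 11936491), had peaks of H2AK119ub replicates 3 and 2 at 143 and 145 bases. No H2AK119ub peak therefore lay within 1 kb of 5 of the 7.

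Width was similar in both sets. Unpaired regions had a median width of 108 bp (range 101 to 249), against 110 bp (range 101 to 283) for paired ones, and single peaks averaged 101.1 bp and 101.6 bp. Width is tied to the rule, since a wider region overlaps more easily, and was not tested. The 5 widest unpaired regions, of 201 to 249 bp, all had peaks in 3 BMI1 lists and in H2AK119ub replicates 2 and 3. The peaks of the 2 H2AK119ub lists shared no base with each other, and at least 1 of them extended past the BMI1 region. They lay near Csk (chromosome 9, 57664947 to 57665195), near Atrnl1 (chromosome 19, 57559546 to 57559793), near Fanca (chromosome 8, 123324754 to 123325000), in Gpc6 (chromosome 14, 117386452 to 117386662) and near Igsf11 (chromosome 16, 39184856 to 39185056).

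The position of unpaired regions relative to genes was not used by the rule, and was compared with that of paired regions within each Homeostasis BMI1 library. A two-sided exact sign-flip permutation test over 3 libraries gives p = 0.25, its smallest, whenever the 3 differences share a sign. The libraries also share regions, so p shows only whether the signs agree across lists. In replicates 1, 2 and 3, 32.4%, 33.4% and 35.4% of peaks in unpaired regions had their centre in a protein-coding gene, against 31.5%, 32.2% and 31.9% of peaks in paired regions. The mean difference was 1.87 ± 1.45 percentage points (SD, n = 3, higher in 3 of 3 libraries, exact permutation p = 0.25, adjusted p = 0.25 over 3 differences), and it was 3.31, 3.25 and -0.149 with BMI1 replicate 1, 2 or 3 left out and 0.400 with H2AK119ub replicate 1 left out. With all annotated genes counted the sign was the other way, 43.4 ± 1.41% of unpaired against 45.3 ± 0.586% of paired peaks.
Within 1 kb of an end of a protein-coding gene lay 3.34%, 3.04% and 2.59% of peaks in unpaired regions, against 2.40%, 2.28% and 2.46% in paired ones. The mean difference was 0.610 ± 0.421 percentage points (higher in 3 of 3 libraries, exact permutation p = 0.25, adjusted p = 0.25). Its direction turned under 9 of 16 alternatives, among them a limit of 5 kb (-0.137) and leaving out BMI1 replicate 1 (-0.209), BMI1 replicate 2 (-0.0394), H2AK119ub replicate 2 (-0.569) or H2AK119ub replicate 3 (-0.337).
In both sets about 29% of peaks were over 100 kb from any protein-coding gene (29.2 ± 0.768% unpaired, 29.6 ± 0.245% paired, SD, n = 3). Outside chromosome 18, the median distance from a region to the nearest RefSeq start site was 46.2 kb for unpaired and 45.7 kb for paired regions.

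Genes of tRNA and 5S ribosomal RNA, short genes read by RNA polymerase III, held a smaller share of the peaks in unpaired regions. It was 1.46%, 1.18% and 1.30% of peaks in unpaired regions of replicates 1, 2 and 3, against 3.45%, 3.26% and 4.14% in paired regions. Every library had the lower share in unpaired regions, with a mean difference of -2.30 ± 0.468 percentage points (SD, n = 3, exact permutation p = 0.25, the smallest possible, adjusted p = 0.25). The difference was -1.37, -5.25 and -5.50 with H2AK119ub replicate 1, 2 or 3 left out. With BMI1 regions required in 3 of 3 lists it was -1.15 (3.36% against 4.51%). As regions, 8 of 708 unpaired and 125 of 3758 paired ones on assembled chromosomes lay on such a gene. Of the 8, 6 were on tRNA genes and 2 on 5S genes, n-R5s211 and the pseudogene n-R5s204. The methionine tRNA genes n-TMcat6, n-TMcat8, n-TMcat9 and n-TMcat11 made up 4 of the 6, and methionine genes of this type 7 of the 88 paired tRNA regions. The other tRNA genes were n-TIaat3, for isoleucine, and n-TDgtc6, for aspartate.
At 5 of the 8 regions the only H2AK119ub list with a peak was replicate 1, the shortest list, which alone marked 63 of all 711 unpaired regions. That list had 6.10% of its peaks on tRNA or 5S genes, against 1.12% and 2.06% in H2AK119ub replicates 2 and 3, and 2.27%, 1.74% and 3.63% in the BMI1 lists. Its part in the result was not tested.

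**Figure D4:**
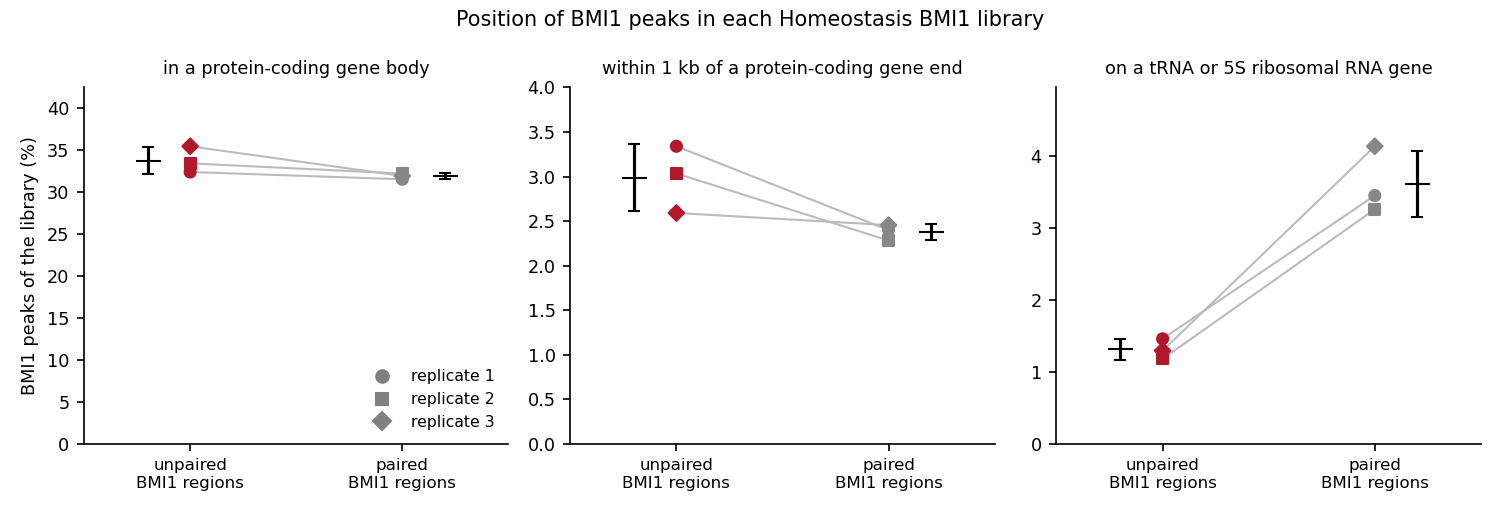
Share of the BMI1 peaks of each Homeostasis library (y axis, percent) in a protein-coding gene, near a gene end and on a tRNA or 5S gene, for unpaired regions (red, left) and paired regions (grey, right). Lines join values of the same library, and black marks are means ± SD (n = 3). The shares on tRNA and 5S genes were 1.18 to 1.46% and 3.26 to 4.14%.

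Unpaired regions were spread over all chromosomes. Their share of BMI1 regions ran between 11.0% on X (17 of 155) and 23.2% on chromosome 19 (22 of 95), with 16.0% over the autosomes and 16.7% on Y (27 of 162). The exact 95% interval was 6.52 to 17.0% for X and 15.1 to 32.9% for chromosome 19, and both held the overall share of 15.88%. Of 21 chromosomes, 1 had an interval that did not hold it: chromosome 3, with 11.5% (32 of 278, 8.01 to 15.86%). Peaks on X were 2.24 ± 0.400% of those in unpaired and 3.62 ± 0.0862% of those in paired regions (SD, n = 3). This share was lower in unpaired regions in 3 of 3 libraries and was not tested. Few unpaired regions lay close together: 11 of the 711 (1.55%) had another unpaired region within 10 kb, in 5 clusters. Of the 3767 paired regions, 30 (0.796%) had an unpaired region within 10 kb. Another BMI1 region of either kind lay within 10 kb of 5.63% of unpaired and 5.95% of paired regions. The largest cluster held 3 regions over 13.4 kb of Cdc27, given with the other genes.

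At gene level, 285 of 21900 protein-coding genes (1.3%) had an unpaired region in the gene body or within 5 kb, and 227 (1.04%) had one in the body itself. Of the 285, 274 had exactly 1. In 209 of the 285 genes it was the sole kind of BMI1 region. An H2AK119ub region elsewhere in the same span was present in 110 of the 285 (38.6%), against 8.87% of all protein-coding genes. Of the 285, 76 also held a paired BMI1 region, which by the rule overlaps an H2AK119ub region. The 38.6% is therefore partly set by the rule and is a description. These genes were long, with a median of 109 kb, against 87.8 kb for genes with paired BMI1 regions alone and 17.1 kb for all protein-coding genes. Length moves with the chance of holding any peak, and its part in these shares was not tested.

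The 11 genes with 2 or more unpaired regions led with Marchf1, which encodes a membrane ubiquitin ligase known for removing MHC class II from antigen presenting cells (chromosome 8, 65618009 to 66472841, 855 kb). It held 5 unpaired and 2 paired BMI1 regions. BMI1 replicates 1, 2 and 3 had 5, 7 and 6 peaks there, and H2AK119ub replicates 1, 2 and 3 had 2, 6 and 4, so the libraries of the 2 antibodies overlapped in number. The paired regions lay at 115 and 165 kb from the lower genome boundary of the gene and 4 of the unpaired ones between 599 and 731 kb, as the map of Marchf1 shows. The region at 731 kb had peaks in all 3 BMI1 lists and in H2AK119ub replicate 1. The regions at 599 and 695 kb had no H2AK119ub peak, and the one at 710 kb had a peak of replicate 2. The fifth, at 273 kb (65891339 to 65891479), overlapped a peak of H2AK119ub replicate 3 and lay 43 bases from an H2AK119ub region.

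**Figure D5:**
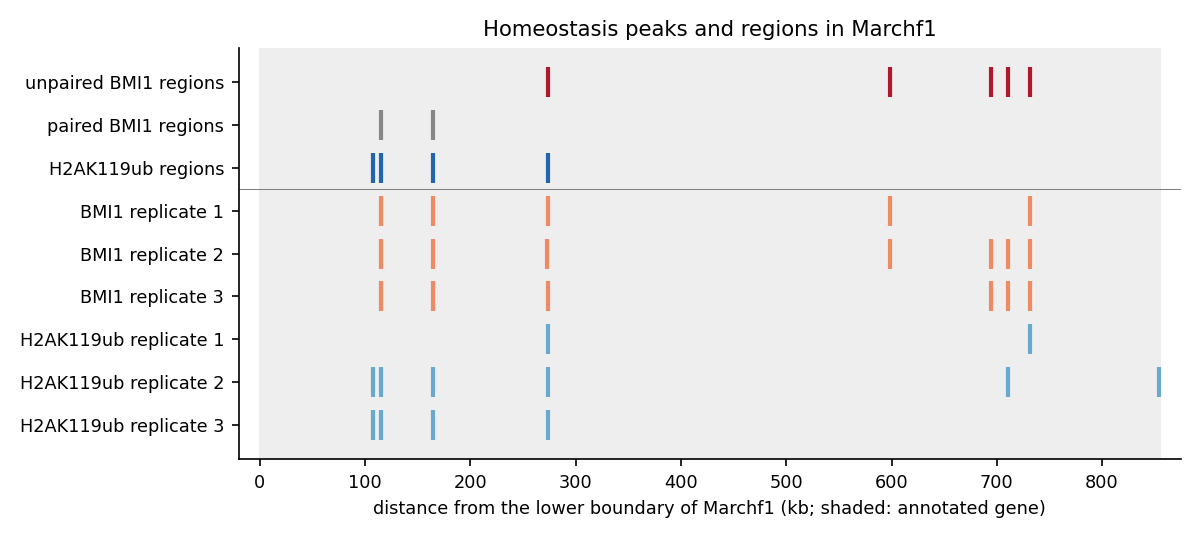
Regions and peaks along Marchf1 (x axis, kb from the lower genome boundary of the gene, shaded). The upper rows show unpaired BMI1, paired BMI1 and H2AK119ub regions, and the lower rows the peaks of each Homeostasis library. Of the 5 unpaired regions, 4 lie between 599 and 731 kb, where H2AK119ub lists held 2 peaks.

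Cdc27, which encodes a subunit of the anaphase promoting complex, was the shortest of these genes (chromosome 11, 104502524 to 104550620). Its 3 unpaired regions all had peaks in BMI1 replicates 2 and 3, none in BMI1 replicate 1 and none in an H2AK119ub list. H2AK119ub replicates 1, 2 and 3 had 1, 2 and 1 peaks elsewhere in the gene, and an H2AK119ub region lay 12 bases from the middle unpaired region (104528382 to 104528489) and over 6 kb from the others.
Both regions of Hs6st3, which encodes a heparan sulfate sulfotransferase, lacked an H2AK119ub peak (chromosome 14), and 1 of them (119182068 to 119182171) was 29 bases from an H2AK119ub region. Both regions of Slc12a8, a cation and chloride cotransporter family gene (chromosome 16), had a peak of H2AK119ub replicate 2 alone, and the nearest H2AK119ub region was 549227 bases away.
In Gphn, which encodes the synaptic scaffold gephyrin, the unpaired regions were 10 bases apart (chromosome 12, 78350928 to 78351035 and 78351046 to 78351165). The first had a peak of H2AK119ub replicate 3 and the second of replicate 2.
The other 6 genes with 2 unpaired regions were longer than 1 Mb, and each held 3 or more H2AK119ub regions: Robo1, a Slit receptor, Gpc6, a glypican, Ctnna2, an alpha-catenin of neurons, Lrrc4c, a synaptic adhesion gene, Dlg2, a synaptic scaffold gene, and Lrp1b, a lipoprotein receptor gene. Robo1 held 2 unpaired among 7 BMI1 regions, with 4, 8 and 7 BMI1 peaks and 2, 9 and 7 H2AK119ub peaks in replicates 1, 2 and 3. In Dlg2 both BMI1 regions were unpaired, and 1 of them (chromosome 7, 91892520 to 91892623) was 51 bases from an H2AK119ub region.

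The 10 regions with their centres closest to an end of a protein-coding gene lay 160 to 658 bases from it. One lay in Il1b, which encodes the inflammatory cytokine interleukin 1 beta, 231 bases after its start site (chromosome 2, 129370850 to 129370966), with peaks in BMI1 replicates 1 and 3 and in H2AK119ub replicate 2. Peaks of BMI1 replicate 2 and H2AK119ub replicate 3 lay 8 and 15 bases from that region. Another had its centre 492 bases from Oxtr, which encodes the oxytocin receptor (chromosome 6, 112491472 to 112491583), with peaks in BMI1 replicates 1 and 2 and in H2AK119ub replicate 2. A further one had its centre 608 bases from Kcnn2, which encodes a calcium-activated potassium channel (chromosome 18, 45268091 to 45268193), with peaks in BMI1 replicates 2 and 3 and H2AK119ub replicate 3. Apart from the regions at Cdh26 and Ilf2 described above, the others were at Cyp2c68, Mccc2, Dcpp1, Uggt2 and H4c8. Of the 10, only the region in Uggt2 had no H2AK119ub peak, and a peak lay 115 bases from it.

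Gene lists were then read against the 1.3% of all protein-coding genes with an unpaired region. They covered Polycomb, development, the cell cycle, oxidant removal, cell identity, neural adhesion, cadherins and potassium channels. Of 382 genes in 14 lists, 23 (6.02%) had one and 80 (20.9%) had any BMI1 region, against 6.72% of all protein-coding genes. The lists were chosen with earlier results of these data known, so these shares are a description and not a test. The 23 became 15, 9 and 8 with BMI1 replicate 1, 2 or 3 left out, and 25, 66 and 64 with H2AK119ub replicate 1, 2 or 3 left out. The list of neural adhesion and guidance genes, with a median length of 653 kb, had 10 of 40 genes with an unpaired region and 25 of 40 with any BMI1 region, and the part of gene length in this was not tested. Among the 10 were Lrrc4c and Robo1, Cntn5, a contactin gene, and Dcc, the netrin receptor gene. The cadherins had 2 of 27 genes, Cdh13 and Cdh18, both with a peak of H2AK119ub replicate 2 at the region. The potassium channels had 3 of 32, Kcnh1, Kcnma1 and Kcnn2, and the region in Kcnh1 (chromosome 1, 192454032 to 192454134) had its nearest H2AK119ub peak 38813 bases away.

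Genes that remove superoxide and peroxide, the oxidants that paraquat raises, had 2 of 28 genes with an unpaired region. One lay 1548 bases before the start site of Cat, the catalase gene (chromosome 2, 103486651 to 103486752), with peaks in BMI1 replicates 2 and 3 and in H2AK119ub replicate 3, and with the nearest H2AK119ub region 80731 bases away. The other lay in Sod3, which encodes extracellular superoxide dismutase (chromosome 5, 52368129 to 52368282), with peaks in BMI1 replicates 1 and 3 and in H2AK119ub replicate 3, 9 bases from an H2AK119ub region.
Cell cycle genes of the INK4, RB and p53 pathways had 1 of 19, a region 3505 bases outside Mdm4, which encodes an inhibitor of p53 (chromosome 1, 133034093 to 133034230). It had no H2AK119ub peak but lay 43 bases from an H2AK119ub region. Cdkn2a and Bmi1 had no BMI1 or H2AK119ub peak in any of the 12 lists.

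Lists of cell identity had 0 to 2 genes with an unpaired region each. Cardiomyocyte genes had 2 of 20, Ctnna3 and Myl3. Ctnna3, a gene of 1574 kb, encodes an alpha-catenin of the intercalated disc. Of its 6 BMI1 regions, 1 was unpaired (chromosome 10, 64906357 to 64906462, with a peak of H2AK119ub replicate 2). The other region lay 2282 bases outside Myl3, which encodes a myosin light chain (chromosome 9, 110772085 to 110772188, with a peak of H2AK119ub replicate 1). Stromal genes had 1 of 22, Ddr2, a collagen receptor gene (chromosome 1, 170037383 to 170037486, nearest H2AK119ub peak 48404 bases away). Smooth muscle genes had 1 of 12, with a region 2118 bases outside Mylk, which encodes myosin light chain kinase (with a peak of H2AK119ub replicate 1). Cardiac and mesoderm transcription factors had 1 of 24, Wt1, an epicardial regulator (chromosome 2, 105162715 to 105162815, with a peak of H2AK119ub replicate 3). No unpaired region was at any of 22 endothelial genes, 27 Polycomb subunit genes, 39 HOX genes, 50 other developmental transcription factors or 20 leukocyte genes, of which 7, 2, 1, 4 and 2 had a paired BMI1 region. Shares of the 4 lists with such a gene ran between 4.17% and 10%, on 1 or 2 genes each. In lists of 12 to 24 genes, 1 gene already gives a share above the 1.3% background, so nothing follows from that comparison. The endothelial and leukocyte lists had 0 such genes, and no list was tested.

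After paraquat, 1 of the 711 unpaired regions (0.141%, exact 95% interval 0.00356 to 0.781%) had a peak in a Damage list, against 8 of the 3767 paired ones (0.212%, 0.0917 to 0.418%). It lay on the isoleucine tRNA gene n-TIaat3, 21.3 kb from Abt1 (chromosome 13, 23397039 to 23397142). Damage BMI1 replicate 2 and Damage H2AK119ub replicate 2 had a peak there, as did Homeostasis BMI1 replicates 1 and 2 and Homeostasis H2AK119ub replicate 1. Per library, 0 of 19, 1 of 27 and 0 of 47 peaks of Damage BMI1 replicates 1, 2 and 3 lay at unpaired regions, and 0 of 31, 1 of 68 and 0 of 25 of Damage H2AK119ub replicates 1, 2 and 3. The 2 peaks became 0, 0 and 2 with BMI1 replicate 1, 2 or 3 of the Homeostasis lists left out, and 3, 3 and 4 with H2AK119ub replicate 1, 2 or 3 left out. With so few peaks, no test between antibodies was made, and a loss or gain at unpaired regions was not detectable.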

How the data were processed

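Bowtie2 and HOMER 4.8 are named with the build GRCm38 in the submitters' processing notes, without peak-calling settings or a role for Input. For each ChIP library the authors deposited 1 list of peaks, with a score of 1 for every peak; starts were shifted to count from 1. Depth is unknown. The 2 Input libraries were not analysed here.

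Regions, their overlap and their distances were computed from positions. Genes, start sites and promoter sequences came from RefSeq tables of GRCm38.p6. Start sites and promoter sequences of chromosome 18 were not available. A gene was counted with 5 kb on either side, and all 382 list symbols matched. No genome was used, so the planned comparison of GC content and repeats was not run.

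Shares were compared within the 3 Homeostasis BMI1 libraries by two-sided exact sign-flip permutation, with Benjamini-Hochberg adjustment over 3 differences. Binomial intervals cover counting error only. If replicates are technical, spread between them is technical too. The rule named regions in 3 BMI1 lists and no H2AK119ub list, up to 10 regions nearest gene ends, up to 10 on tRNA or 5S genes, those with Damage peaks, the 5 widest, the 3 nearest the threshold on each side, up to 15 genes with 2 or more unpaired regions, up to 4 genes per list, Cdkn2a and Bmi1. Regions and lists were chosen with earlier results of these data known. The region building was tested on simulated lists in which the peaks of a site always overlapped, so near misses between lists were not covered. Python 3.11.15, numpy 2.4.6 and scipy 1.17.1 were used.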

Additional observations from a re-analysis of the deposited data

How the results depend on the processing

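The number of unpaired regions rested on the lists. It was 711, and 2957 and 2914 without H2AK119ub replicates 3 and 2 (847 without replicate 1), with the 711 among them each time, since fewer lists can form an H2AK119ub region. It was 2993 with H2AK119ub regions in 3 of 3 lists, 138 with a peak of any H2AK119ub list, 121 with BMI1 regions in 3 of 3 lists, 236 to 368 without 1 BMI1 list, and 95 with no H2AK119ub peak within 1 kb (chosen after seeing the data). The share of 15.9% was 17.3% with 50% or more of the BMI1 region to be covered by an H2AK119ub region, 14.6% with an H2AK119ub region within 1 kb, 3.08%, 66.8% and 5.27% under the 3 consensus rules (any list, 3 of 3 H2AK119ub, 3 of 3 BMI1), 13.4% with peaks within 1 kb merged, 2.12% under the added rule, 9.52 to 11.1% without 1 BMI1 list and 18.9 to 66.0% without 1 H2AK119ub list. Regions with no H2AK119ub peak numbered 7 in 3 of 3 BMI1 lists and 40 to 69 without 1 BMI1 list.

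The 2 Damage peaks became 0 with any H2AK119ub list or 3 of 3 BMI1 lists, 4 with 3 of 3 H2AK119ub lists, 0 to 2 without 1 BMI1 list and 3 to 4 without 1 H2AK119ub list. The 23 list genes became 4, 65 and 3 under the consensus rules (any, 3 of 3 H2AK119ub, 3 of 3 BMI1), 8 to 15 without 1 BMI1 list and 25 to 66 without 1 H2AK119ub list. The width difference of -0.442 bp was -1.06 bp with 3 of 3 H2AK119ub lists, and -1.04 to -0.391 bp without 1 H2AK119ub list.

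The gene end difference of 0.610 percentage points was -1.07 (any list), -0.420 (3 of 3 H2AK119ub), -0.989 (3 of 3 BMI1), -0.137 (5 kb) and -1.56 (added rule), -0.209 to 0.886 without 1 BMI1 list and -0.569 to 0.563 without 1 H2AK119ub list. The gene body difference of 1.87 was -0.149 to 3.31 without 1 BMI1 list, the negative value without replicate 3, and kept its sign under the other alternatives. The tRNA and 5S difference of -2.30 kept its sign under all 15 alternatives, -5.50 to -1.37 without 1 library. Its smallest size was -1.15 (3.36% against 4.51%), with BMI1 regions in 3 of 3 lists. The library served as block; with no replicate block the differences stay 1.87, 0.610 and -2.30 and the exact permutation p was 0.1 for each, the smallest that 20 arrangements allow. The cause of these moves was not tested beyond the number of lists required. Depth was unknown.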
